A study of Mus musculus with 12 samples.

Results

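The 20 kb of mouse chromosome 17 around Pou5f1 were examined for their chromatin contacts in embryonic stem cells and after retinoic acid. Pou5f1 (ENSMUSG00000024406, plus strand, mm10 chr17:35506018-35510772) encodes the transcription factor Oct4. The window ran from 11017 bp before to 8983 bp after its transcription start site, and no other protein-coding gene starts in it. Members were all interactions with at least 1 anchor overlapping this window, an anchor being a restriction-bounded interval between which read pairs were counted. There were 606 such interactions of 10237359 in ESC Hi-C and 528 of 10708066 in NCC Hi-C. The FGFR1 HiChIP tables held 57 of 1921126 in ESC and 67 of 2388222 in NCC. The CTCF HiChIP tables held 49 of 882215 in ESC and 75 of 841945 in NCC.

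The study compared E14Tg2A mouse embryonic stem cells (ESC), kept pluripotent with LIF, with neuronal committed cells (NCC) made from the same line by 48 h of 1 µM retinoic acid without LIF. Hi-C counts ligated DNA fragments genome-wide, and HiChIP adds a precipitation of the crosslinked fragments. The antibodies here were to the fibroblast growth factor receptor FGFR1, whose nuclear form the study examined, or to the architectural protein CTCF. Each of the 6 tables merged 2 biological replicates, so no value below has a replicate error and no test between cell types was possible. Unless stated otherwise, intervals are 95% exact binomial intervals on read pairs and cover counting error only. For anchors with the same bounds in both cell types they are on ends instead. Ends count a read pair that lies wholly in these anchors 2 times, so those intervals are too narrow. The tables held 20745652 (ESC) and 21228099 (NCC) read pairs for Hi-C, 2662606 and 3203872 for FGFR1 and 1218098 and 1056437 for CTCF. All NCC over ESC ratios were scaled to these totals. The tables hold no expression values, so the cell types were not checked against marker genes, and both groups are 1 cell line.

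Oct4 is a POU-family factor that binds the octamer motif and, together with Sox2 and Nanog, maintains pluripotency. Its gene is switched off as ESC differentiate with retinoic acid. Transcription of Pou5f1 is driven by a promoter without a TATA box and by a proximal and a distal enhancer just upstream. The gene lies inside the major histocompatibility complex, with class I H2-Q genes, which encode antigen-presenting molecules, on its upstream side, and Tcf19, Cchcr1, Psors1c2 and Cdsn on its downstream side.

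The promoter is shown because the largest Hi-C anchor of the window, and an FGFR1 anchor present in ESC alone, held it. The bases before the start site (chr17:35505782-35506017, plus strand, GRCm38.p6, the assembly of mm10, from RefSeq) are printed below with a GC box (GGGCGG) in capitals.
Pou5f1 promoter: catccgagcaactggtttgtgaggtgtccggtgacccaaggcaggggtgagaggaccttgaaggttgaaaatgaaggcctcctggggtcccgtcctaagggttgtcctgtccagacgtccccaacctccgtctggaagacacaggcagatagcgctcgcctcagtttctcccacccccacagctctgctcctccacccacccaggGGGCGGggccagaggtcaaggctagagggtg

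The GC box is a binding motif of Sp1-family factors. Read on both strands, it occurred in 32.7% of the 32851 RefSeq promoter entries when each was cut to its 250 bases before the start. The octamer (ATGCAAAT, both strands) was absent from this promoter and present in 1.60% of them. The single octamer in the window lay at chr17:35509983-35509990, 3.97 kb past the start site in a coding exon of Pou5f1, and 76.1% of the 20 kb bins of chromosome 17 held at least 1. The CTCF core consensus had no match in the window on either strand, which says only that these letters are not there. It matched 18 times in the 1 Mb region (chr17:35000001-36000000), and 10.7% of the 20 kb bins of the chromosome held a match.

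The consensus matches closest to the gene on its downstream side are shown because both are intergenic and lay in partner anchors with high scores for the promoter in ESC Hi-C. Capitals mark the match, and both are on the plus strand. The first, 38.9 kb from the start site at chr17:35544863-35544902, lay in anchors of both Hi-C tables and of the ESC FGFR1 and ESC CTCF tables but in no anchor of the NCC HiChIP tables. The second, 72.4 kb away at chr17:35578357-35578396, lay in anchors of all tables except ESC FGFR1.
CTCF match toward Cdsn: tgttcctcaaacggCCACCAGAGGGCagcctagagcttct
CTCF match past 2300002M23Rik: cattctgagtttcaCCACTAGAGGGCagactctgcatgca

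At the Pou5f1 window, Hi-C contacts and FGFR1 HiChIP contacts were fewer in NCC than in ESC, while CTCF HiChIP contacts were more numerous. The interaction anchor strength, the number of read-pair ends in anchors of the window, was 1851 in ESC Hi-C and 1226 in NCC Hi-C, a log2 ratio of -0.63. FGFR1 HiChIP gave 119 ends in ESC against 87 in NCC, a log2 ratio of -0.72. CTCF HiChIP gave 92 ends in ESC against 136 in NCC, a log2 ratio of 0.77. As read pairs, the Hi-C count went from 1474 to 1027 (ratio 0.681, interval 0.628 to 0.738), the FGFR1 count from 97 to 80 (0.685, 0.503 to 0.931) and the CTCF count from 72 to 112 (1.79, 1.32 to 2.45). None of the 3 intervals included 1.

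Changes of this size were common in the tables. For Hi-C strength, 15% of the 16095 bins of 20 kb that held a protein-coding gene start were lower in NCC by at least 1.5-fold, and 13.6% had a log2 ratio below that of the window. The genome-wide log2 ratio of these bins had a median of -0.03 and ran from -1.09 to 0.93 between its 5th and 95th percentiles. For FGFR1 strength, 29.9% of 11864 bins were lower by 1.5-fold, and 24% lay below the window. For CTCF strength, 18.6% of 3964 bins were higher by 1.5-fold, and 86.7% lay below the window. The value at Pou5f1 lay between the 5th and 95th percentiles for all 3 assays.

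**Figure D1:**
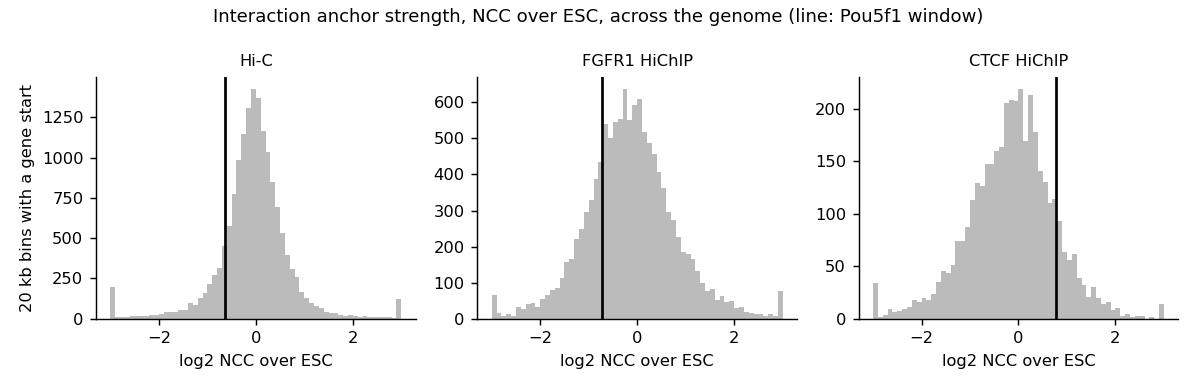
Histograms of the log2 ratio of interaction anchor strength, NCC over ESC, in 20 kb bins with a protein-coding gene start and at least 100 ends in both tables together (values beyond 3 in either direction are stacked in the end bars). The black line is the Pou5f1 window, at -0.63 for Hi-C, -0.72 for FGFR1 HiChIP and 0.77 for CTCF HiChIP, inside the spread of each.

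The anchors themselves differed between tables, since they had been called in each one separately. How often an anchor elsewhere in the genome lacks a counterpart was not counted. An anchor called in ESC or NCC alone is therefore only described. In Hi-C, the anchor with the Pou5f1 start site covered chr17:35503613-35510257 in ESC, with 931 ends, and chr17:35504811-35510257 in NCC, with 621 ends. The NCC anchor began 1207 bp before the start site and the ESC anchor 2405 bp before it. The ratio of the 2 anchors was 0.652, or 0.795 per kb of anchor. The next anchor upstream, 5611 bp before the start site at its far end, had 343 ends in ESC and 260 in NCC. The anchor farthest upstream had 382 ends over 5002 bp in ESC and 162 over 1860 bp in NCC. The only Hi-C anchor with the same bounds in both tables, chr17:35512417-35514435 past the gene's end, had 195 ends in ESC and 183 in NCC (0.917, 0.745 to 1.13). Over the whole window, strength per kb of anchor was 113 ends in ESC and 97.8 in NCC, a ratio of 0.843. The lower Hi-C strength in NCC thus went with a smaller covered share of the window, 62.7% against 72.8%, and per kb it was no longer past 1.5-fold, with 19.7% of gene-start bins below it on that scale. Without read pairs inside a single anchor, the log2 ratio of Hi-C strength was -0.55 and also short of 1.5-fold.

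FGFR1 HiChIP placed an ESC anchor across the promoter and the sequence just upstream, chr17:35501525-35506187, with 90 ends, of which 17 read pairs joined the anchor to itself. No NCC FGFR1 anchor held the start site. The NCC anchor that overlapped the same stretch, chr17:35500407-35503070, ended 2948 bp before the start site and had 47 ends. A NCC anchor past the gene's end had 20 ends and had no ESC counterpart. The anchor shared by both tables, at chr17:35493224-35496244, had 29 ends in ESC and 20 in NCC (0.573, 0.307 to 1.05). Here the covered share of the window was alike, 29.5% in ESC and 29.6% in NCC, and the ratio per kb was 0.606, with 13.5% of gene-start bins below it. Without read pairs inside a single anchor, the FGFR1 log2 ratio was -0.42, short of 1.5-fold.

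CTCF HiChIP had no anchor at the start site in either cell type. Its strongest anchor lay inside the gene, chr17:35507140-35509168, with the same bounds in both tables, and had 43 ends in ESC and 61 in NCC (1.64, 1.09 to 2.48). That interval is on ends, and 10 read pairs in ESC and 9 in NCC joined the anchor to itself. The anchor 10.6 kb upstream had 26 ends in each. The anchor at chr17:35500407-35503070, the interval of the NCC FGFR1 anchor, was present in NCC alone, with 27 ends. The anchor past the gene's end had 23 ends in ESC and 22 in NCC. Per kb of anchor the CTCF ratio was 1.30, short of 1.5-fold and above 81.6% of gene-start bins. Over the anchors with the same bounds in both tables it was 1.45 (1.05 to 2.02). With the anchor called in NCC alone, the covered share of the window was 42.5%, against 32.0% in ESC.

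**Figure D2:**
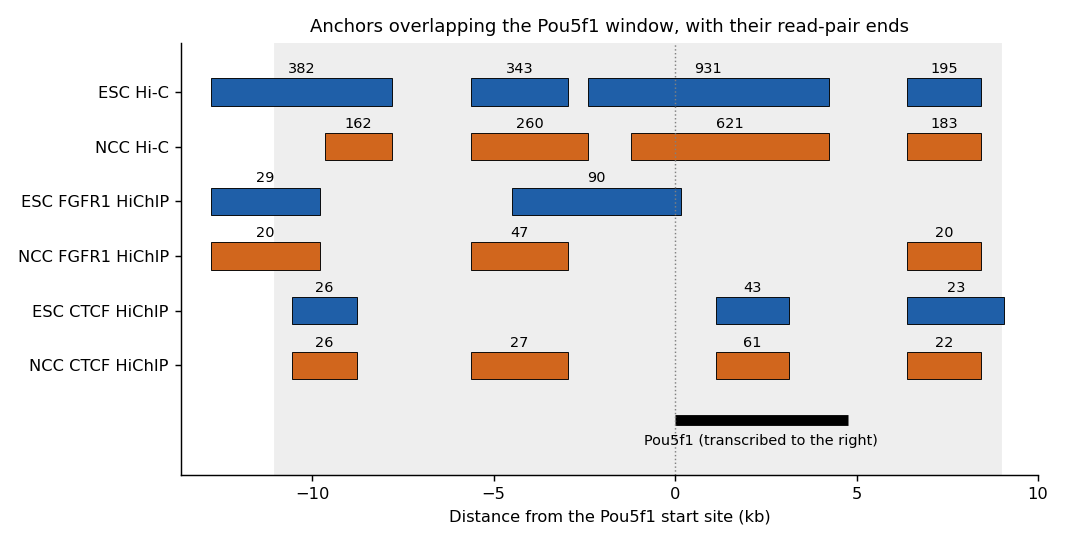
Anchors overlapping the Pou5f1 window (grey) in each of the 6 tables, drawn by distance from the Pou5f1 start site (dotted line) in kb, blue for ESC and orange for NCC, with the read-pair ends of each anchor above it. The ESC FGFR1 anchor of 90 ends spans the start site, no NCC FGFR1 anchor does, and an upstream CTCF anchor of 27 ends is drawn for NCC alone. Anchors were called in each table separately, and how often one lacks a counterpart genome-wide was not counted.

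Set against Hi-C in the same cells, FGFR1 HiChIP held a smaller share of its read pairs at the window in both cell types, whereas the CTCF share was above that of Hi-C in NCC. The FGFR1 share over the Hi-C share was 0.513 in ESC (0.413 to 0.630) and 0.516 in NCC (0.406 to 0.648). In ends, the same ratio at the window was 0.501 in ESC and 0.470 in NCC, where gene-start bins had a median of 0.799 and 0.739. Of these bins, 24.95% lay below the window in ESC and 26.58% in NCC. An FGFR1 share lower than the Hi-C share by 1.5-fold was common, in 39.01% of bins in ESC and 44.01% in NCC. The CTCF share over the Hi-C share was 0.832 in ESC (0.647 to 1.05) and 2.19 in NCC (1.79 to 2.67). In ends, 93.0% of gene-start bins lay below the window in NCC against 51.5% in ESC. A CTCF share higher than the Hi-C share by 1.5-fold was found in 18.18% of gene-start bins in NCC. In level, the window had 2.74 times the median Hi-C ends of a gene-start bin in ESC and 1.77 times in NCC, and 2.71 and 4.69 times the median CTCF ends. For FGFR1 these levels were 1.68 and 1.10 times the median.

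The Hi-C ratio was lowest for the shortest contacts. Read pairs inside a single anchor numbered 212 in ESC and 106 in NCC (0.489, 0.383 to 0.620), and those between different anchors of the window 165 and 93 (0.551, 0.423 to 0.714). Over gene-start bins the median ratio was 0.914 for pairs inside 1 anchor and 0.977 for pairs between anchors, and 26.2% and 26.9% of bins were lower by 1.5-fold. Of these bins, 12.5% lay below the window for pairs inside 1 anchor and 18.5% for pairs between anchors. Pairs inside 1 anchor had a ratio of 0.533 at Nanog and 0.667 at Sox2, and pairs between anchors 0.933 and 0.401. With the rest of the 1 Mb region the window shared 685 read pairs in ESC and 478 in NCC (0.682, 0.605 to 0.768), short of 1.5-fold. In contacts over the same distances, 16.8% of gene-start bins lay below the window and 15.6% were lower by 1.5-fold. The downstream side went from 396 to 253 (0.624, 0.531 to 0.733) and the upstream side from 289 to 225 (0.761, 0.636 to 0.909), with overlapping intervals. Contacts elsewhere on chromosome 17 went from 228 to 179 (0.767, 0.627 to 0.937). Contacts with other chromosomes numbered 184 and 171 (0.908, 0.733 to 1.12), a difference within counting error, so their share of the window's read pairs was 12.5% in ESC and 16.7% in NCC. Over all Hi-C read pairs the share between chromosomes was also higher in NCC, 10.1% in ESC and 11.6% in NCC.

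In FGFR1 HiChIP the lowest ratio with an interval below 1 was that of pairs inside 1 anchor, 19 in ESC and 6 in NCC (0.262, 0.0858 to 0.684). Of gene-start bins, 9.48% lay below it. The same ratio was 0.166 at Sox2 and 0.970 at Nanog, where the interval (0.416 to 2.29) included 1. Pairs of the Pou5f1 window with the region were 43 and 41 (0.792, 0.504 to 1.24), a difference not detectable at this depth. There 42.7% of gene-start bins lay below the window and 31.1% were lower by 1.5-fold. In CTCF HiChIP the pairs with the region went from 30 to 59 (2.27, 1.44 to 3.65), where 25.5% of gene-start bins were higher by 1.5-fold. Both sides held more CTCF read pairs in NCC, 17 to 30 upstream (2.03, 1.09 to 3.93) and 13 to 29 downstream (2.57, 1.30 to 5.39). Pairs inside 1 CTCF anchor were 14 and 15 (1.24, 0.556 to 2.76).

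**Figure D3:**
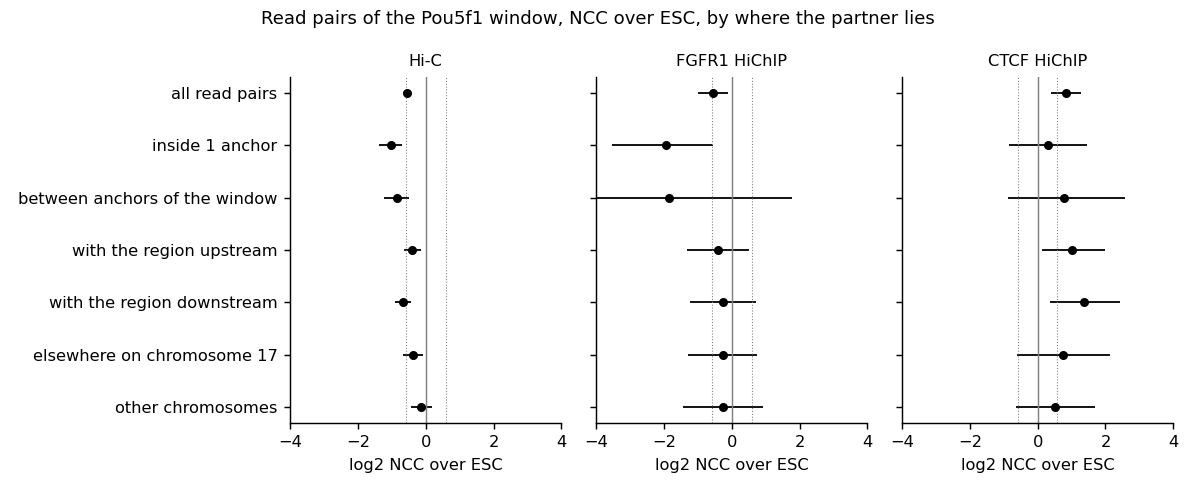
Log2 ratio of scaled read pairs of the Pou5f1 window, NCC over ESC, for all read pairs and by where the partner lies, in the 3 assays. Bars are 95% exact intervals for counting error (those past the axis limit are cut off), dotted lines mark 1.5-fold; all 7 Hi-C points lie below 0 and all 7 CTCF points above it.

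Partners were counted in 20 kb bins in step with the window, and a bin was compared where both cell types together held at least 20 read pairs. In Hi-C, 13 of 48 partner bins passed this minimum. Of these, 7 were lower in NCC by 1.5-fold and 1 was higher, where over all gene-start bins and their partners 23.8% were lower and 20.7% higher. The 13 bins are not independent, since all share the window, whose own read-pair ratio was 0.681. Their median log2 ratio was -0.65, close to the -0.63 of the window's strength. The interval lay below 1 for 5 bins and above 1 for none, and 11 of the 13 had fewer scaled read pairs in NCC. Since a sum of at least 20 selects the best-covered bins, the other 35 bins have no ratio here.

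Next to the window, the bin upstream, which holds no gene start and lies closest to H2-Q10, had 156 read pairs in ESC and 100 in NCC (0.626, 0.482 to 0.810). The bin downstream, with the starts of Tcf19, a cell-cycle regulated gene, Cchcr1, a coiled-coil protein gene, and Psors1c2, had 164 and 118 (0.703, 0.550 to 0.896). Farther out, the bin of Cdsn, which encodes corneodesmosin of the skin barrier, had 49 and 19 (0.379, 0.211 to 0.655). Its own strength differed little, 1290 ends in ESC and 1279 in NCC. The next bin, that of the gene 2300002M23Rik, had 27 and 20 (0.724, 0.385 to 1.34), an interval that included 1.

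The bin of Ddr1, a collagen-binding receptor kinase gene 200 kb downstream, had 18 read pairs with the window in ESC and 2 in NCC (0.109, 0.0122 to 0.454), and the bin beside it 21 and 9 (0.419, 0.169 to 0.954). Total strength of the Ddr1 bin was also lower in NCC, 1311 ends against 756, a log2 ratio of -0.83. The strongest single ESC interactions of the promoter anchor were with an anchor at H2-Q10 (score 17), one past 2300002M23Rik (13), one toward Cdsn (12) and one 220 kb downstream (chr17:35718429-35732795, 12). In NCC the highest score of the promoter anchor was 12, with an anchor at H2-Q6, 82.0 kb upstream, followed by 8 with H2-Q10.

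On the class I side the bins differed from one another. The H2-Q10 bin had 43 read pairs in ESC and 28 in NCC (0.636, 0.381 to 1.05). The H2-Q7 bin had 14 and 25 (1.75, 0.873 to 3.63), the only one higher by 1.5-fold. The H2-Q6 bin had 16 and 18 (1.10, 0.529 to 2.30). The intervals of all 3 included 1. The H2-Q genes are close copies of one another, so all counts at H2-Q1 to H2-Q10, those above included, are uncertain where the authors' mapping could split reads between copies, and its part was not tested. The same holds for exons of Pou5f1, which has processed pseudogenes elsewhere in the genome.

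By gene group, the 7 class I H2-D and H2-Q genes shared 92 read pairs with the window in ESC and 82 in NCC (0.871, 0.639 to 1.19). The 4 downstream neighbours Tcf19, Cchcr1, Psors1c2 and Cdsn shared 213 and 137 (0.629, 0.503 to 0.783). They include the bin next to the window downstream, with 164 and 118. The bin next to the window upstream, with 156 and 100, holds no gene start and is in no group. The class I and neighbour groups are therefore not alike in distance. The 14 genes past these neighbours, from Vars2 and Gtf2h4 through Ddr1 and Tubb5 to Gnl1, shared 70 and 30 (0.419, 0.264 to 0.651). The Ddr1 bin described above gave 18 and 2 of these read pairs. No genome share is given for the group ratios. Of 10 listed class III genes, which include Tnf, Lta and Ltb of the tumour necrosis factor family, 7 lay in the region, and their bins shared 14 and 9 (0.628, 0.240 to 1.56). Both CTCF tables held 0 read pairs between the window and these class III bins, a count whose one-sided 95% limit is 3 in each. The listed H2-T genes all start outside the region.

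**Figure D4:**
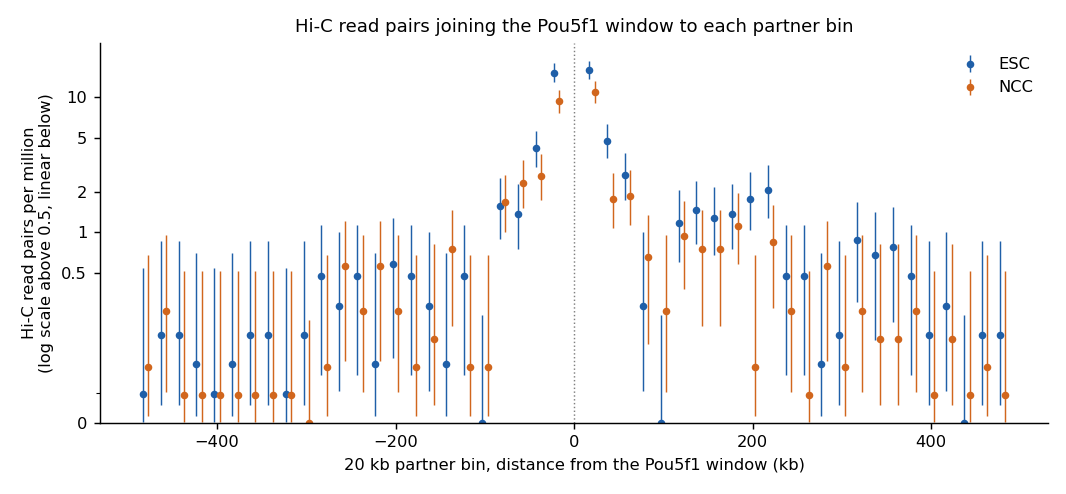
Hi-C read pairs joining the Pou5f1 window to each 20 kb partner bin, by the bin's distance from the window in kb. Counts are per 1000000 interactions (10237359 in ESC and 10708066 in NCC), not per 1000000 read pairs as for the ratios in the text. ESC is blue and NCC orange, drawn slightly apart, on an axis that is logarithmic above 0.5 and linear below it. Bars are 95% Poisson intervals for counting error; ESC values exceed NCC values in the bins next to the window and 200 kb to 220 kb downstream, where the ESC counts are 18 and 21 and the NCC counts 2 and 9.

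Few partner bins could be read in HiChIP. In FGFR1 HiChIP 33 of 48 bins were empty in ESC and 29 in NCC, and the bin next to the window upstream was alone in passing the minimum, with 19 and 10 read pairs (0.437, 0.182 to 0.989; 40.4% of compared bin pairs in the genome were lower by 1.5-fold). In CTCF HiChIP the same bin was alone as well, with 11 and 21 (2.20, 1.01 to 5.06; 25.2% of 115 bin pairs were higher). The bin with Tcf19 had 4 FGFR1 read pairs in ESC and 6 in NCC, and 6 and 7 CTCF read pairs.

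Relative to what distance and the strength of both bins give, the window made few long contacts in ESC. The strength includes read pairs inside the window, so the expected count rises with them, and their part in these values was not tested. Observed over expected Hi-C read pairs with the bins at least 20 kb away were 0.311 in ESC and 0.397 in NCC, where gene-start bins of chromosome 17 had a median of 0.670 and 0.648. In ESC 5.03% of the 735 bins were lower than the window, and in NCC 14.9% of 716. Upstream and downstream differed in ESC, at 0.222 (0.185 to 0.263) and 0.405 (0.354 to 0.460). In NCC they were 0.363 (0.301 to 0.433) and 0.435 (0.365 to 0.516), with overlapping intervals. By group, class III genes had 0.128 in ESC and 0.138 in NCC, class I genes 0.272 and 0.451, the neighbours 0.568 and 0.688 and the genes past them 0.509 and 0.426. The neighbours include the bin next to the window, which the values above leave out. Their 2 bins went opposite ways, 0.647 in ESC and 0.963 in NCC for the Tcf19 bin and 0.404 and 0.248 for the Cdsn bin. Class III was lowest in both.

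Among the 35 other bins of the region with a gene start, the window ranked 11 from the top in ESC Hi-C strength and 21 in NCC, at 1.30 and 0.914 times their median. The neighbours' own Hi-C log2 ratios had a median of -0.17 and ran from -0.83 to 0.67, and 3 of the 35 lay below the window. For FGFR1 HiChIP the rank was 16 before and 22 after retinoic acid, at 1.13 and 0.798 times the median. For CTCF HiChIP the rank was 13 before and 3 after retinoic acid, at 1.51 and 2.72 times the median, and 20 of 22 neighbours with enough ends lay below the window's log2 ratio. The Tcf19 bin beside it went the other way in CTCF strength, from 96 to 33 ends. Several of these placements turned with the choice of neighbours or bin size, as given under the dependence on processing.

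**Figure D5:**
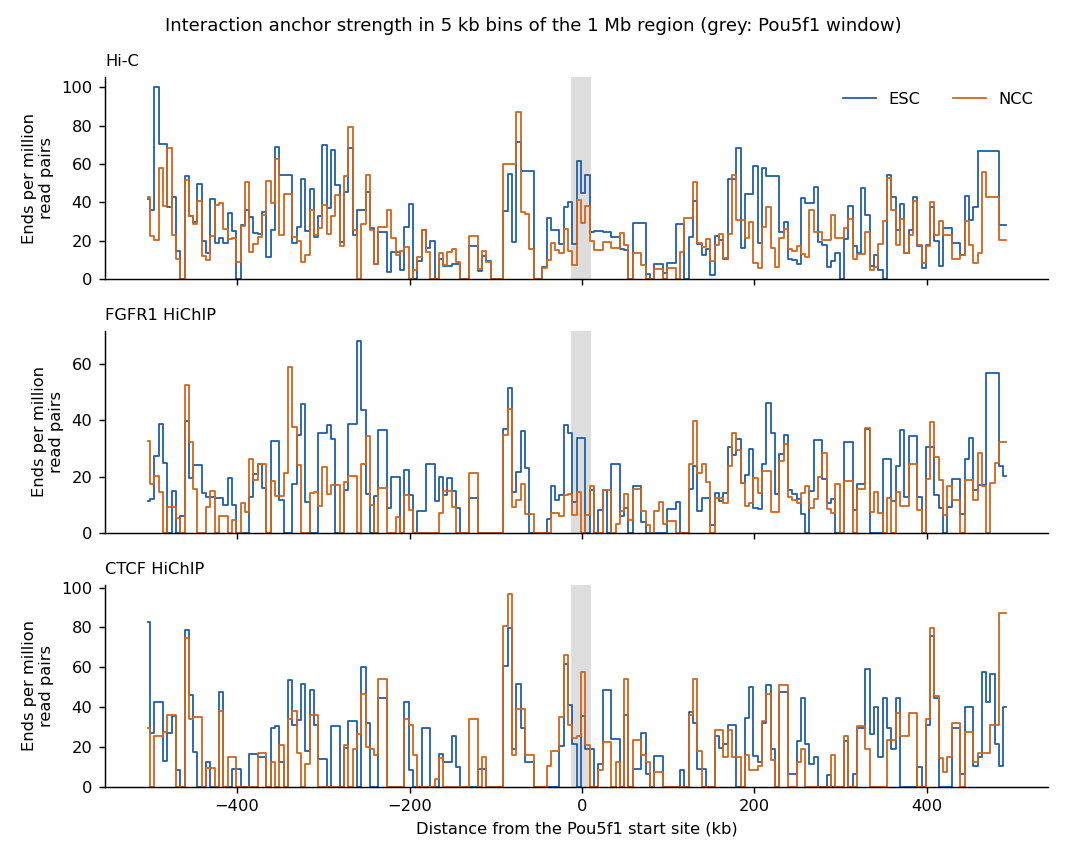
Interaction anchor strength in 5 kb bins of the 1 Mb region, as read-pair ends per 1000000 read pairs, by distance from the Pou5f1 start site in kb, for ESC (blue) and NCC (orange) in the 3 assays, with the Pou5f1 window in grey. In Hi-C the ESC line exceeds the NCC line through the window, and taller peaks than the window's occur on both sides in all 3 assays.

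The windows of Nanog and Sox2, cut the same way around the start sites of the other core pluripotency genes, are set beside it without a test of the difference. Hi-C read pairs went from 1356 to 1090 at Nanog (0.786, 0.725 to 0.851) and from 1704 to 1281 at Sox2 (0.735, 0.683 to 0.790). FGFR1 read pairs went from 143 to 114 at Nanog (0.663, 0.513 to 0.853) and from 228 to 135 at Sox2 (0.492, 0.395 to 0.611). All 3 genes thus had fewer scaled Hi-C and FGFR1 read pairs in NCC, as did most gene-start bins in strength (53.1% in Hi-C, and 57.8% in FGFR1, whose median log2 ratio was -0.16). CTCF read pairs went from 16 to 43 at Nanog (3.10, 1.71 to 5.89) and from 73 to 65 at Sox2 (1.03, 0.723 to 1.45), so that the CTCF interval lay above 1 at Pou5f1 and Nanog and included 1 at Sox2.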

How the data were processed

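Cells of both types went through Hi-C or HiChIP. Per the study's methods, the authors aligned reads to mm10 and removed duplicates with HiC-Pro, called and paired anchors with hichipper, and merged 2 replicates. They state that anchor strength for the main analyses was not filtered by q, and that loops between regulated genes were; the deposited tables keep interactions with a score of 1. The deposited score is the count of read pairs joining 2 anchors, and every anchor on chromosome 17 begins and ends at GATC in GRCm38.p6. Each sample's group came from its labels, and each table was assigned by the sample descriptions that name it.

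Here interactions on chromosomes 1 to 19 and X were kept (99.1% to 99.8% of read pairs). Ratios were scaled to the kept total, with exact conditional binomial intervals (scipy 1.17.1, Python 3.11.15). Reads from PCR are not independent molecules, so intervals cover counting error only. With merged tables there is no p-value; a value past 1.5-fold is only described. Genome bins needed 100 ends, partner bins 20 read pairs. Expected contacts are the chromosome 17 mean at that distance times both bins' strength over the mean. Scripts were tested on simulated data. Gene starts are from GENCODE M21. Named partners at least 20 kb from the window were the 5 with the most Hi-C read pairs and those past 1.5-fold whose interval left out 1; bins next to the window and those of listed genes are also given. The window, gene lists and tests were chosen with earlier results of these data known.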

Additional observations from a re-analysis of the deposited data

How the results depend on the processing

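Of 124 values recomputed for 19 results, 92 stayed within the counting interval of the reported value (counts within 1.5-fold), 27 moved out of it and 5 turned to the other side of 1. The directions of the NCC over ESC comparisons held under every alternative run. The side of 1.5-fold did not: Hi-C and FGFR1 strength were short of it without read pairs inside a single anchor (-0.55 and -0.42), Hi-C and CTCF strength per kb of anchor (-0.25 and 0.38) and on anchors with the same bounds in both tables (-0.12 and 0.54). Hi-C strength had a log2 ratio of -0.79 with scores of at least 2 alone. The per-kb and same-bounds alternatives were chosen after seeing the data. FGFR1 strength gave -1.70 and its regional read pairs -1.11 with scores of at least 2, and CTCF regional read pairs gave 2.06. Hi-C partner bins past 1.5-fold numbered 3 of 4 tested at a minimum of 50 read pairs. At that minimum, and with 5 kb bins, no HiChIP partner bin was left to compare.

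Ratios to the median neighbour were the least stable. With anchors placed by midpoint they were 1.71 (ESC Hi-C), 1.33 (NCC Hi-C, turned from below to above 1), 0.865 (ESC FGFR1, turned) and 3.58 (NCC CTCF). With 10 kb bins they were 1.15 (ESC Hi-C), 1.41 (ESC FGFR1), 0.345 (NCC FGFR1) and 3.32 (NCC CTCF). With 5 kb bins they were 1.51 (ESC Hi-C), 1.14 (NCC Hi-C, turned), 2.20 (ESC FGFR1), 0 (NCC FGFR1, with no anchor in the bin of the start site) and 3.39 (NCC CTCF). Against neighbours with at least 2 gene starts they were 1.20 (ESC Hi-C), 0.975 (ESC FGFR1, turned) and 1.01 (ESC CTCF). Scores of at least 2 gave 0.840 (NCC Hi-C), 1.46 (ESC FGFR1), 0.403 (NCC FGFR1) and 3.73 (NCC CTCF). Leaving out read pairs inside a single anchor gave 0.920 (ESC FGFR1, turned).

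For the share over Hi-C, midpoints gave 0.386 in ESC and 0.400 in NCC for FGFR1, and scores of at least 2 gave 0.371 for FGFR1 and 3.89 for CTCF in NCC. The causes were not tested. No paired analysis was possible because each table merges its replicates. HiChIP partners are limited by depth.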
